A study of Mus musculus with 6 samples.

Results

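Insulin-like growth factor (IGF) genes were followed in primary mouse dermal fibroblasts that had lost YAP and TAZ. The set was defined by symbol as 10 genes: the ligands Igf1 and Igf2, the receptors Igf1r and Igf2r, and the binding proteins Igfbp2 to Igfbp7. Of these, 9 were among the 13706 genes of the deposited table, and Igf2 is not analysed here. All 9 passed the filter on low values. Each of the 3 groups held 2 libraries, made with QuantSeq, which reads a tag at the 3' end of each polyadenylated transcript. Control cells had the genotype Yap1 fl/fl; Wwtr1 fl/fl and no Cre. Knockout (KO) cells carried R26-CAG-CreER on top of both floxed alleles, a Cre made active by 4-hydroxytamoxifen and driven from the ROSA26 locus in every cell type. The third group, KO + H-151, was the same genotype given 1 µM H-151, an inhibitor of the DNA-sensing adaptor STING. Every group, control included, received 1 µM 4-hydroxytamoxifen for 72 hr in serum-containing medium. The sources used here do not give the sex and age of the mice or say whether the 2 libraries of each group stand for separate mice or dishes. The p-values therefore rest on the spread between libraries, which may be technical.

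IGF1 and IGF2 are secreted growth factors that signal through the receptor tyrosine kinase encoded by Igf1r, which recruits IRS adaptors and activates PI3K and AKT. Igf2r encodes the mannose 6-phosphate receptor, which takes up and clears IGF2 and carries lysosomal enzymes. The high-affinity binding proteins hold IGFs outside the cell, lengthen their life and restrict or deliver them to the receptor, and proteases such as PAPP-A release the ligand by cutting them. IGFBP7 binds IGFs weakly and is known as a matrix-associated protein of stroma and vessels. Dermal fibroblasts are a known source of IGF1 for the epidermis.

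Levels are given as scaled CPM, counts per library scaled by the authors to an effective library size. Since each transcript yields a tag at its end whatever its length, levels of different genes are compared without a length term. Reads assigned to the listed genes numbered 12444986 to 15308100 per library. Wwtr1, which encodes TAZ, stood at 213 and 218 scaled CPM in control and at 4.79 and 5.03 in KO and 3.07 and 4.00 in KO + H-151. Yap1 stood at 122 and 128 in control, 66.4 and 68.3 in KO, and 45.3 and 42.4 in KO + H-151. Both were thus lower in KO + H-151 than in KO, Yap1 by -0.61 ± 0.08 (adjusted p = 8.35e-06, limma on log2(scaled CPM + 1)) and Wwtr1 by -0.39 ± 0.13 (adjusted p = 0.0258), so the groups compared for H-151 also differ in tags of the deleted genes. A 3' tag outside the deleted exons would not report their loss. The fibroblast label was checked against 12 markers (Col1a1, Pdgfra, Dcn, Thy1 and others), all of which had tags in all 6 libraries. Their summed levels were 33505 to 34094 scaled CPM in control, 38201 to 40093 in KO and 24943 to 26893 in KO + H-151. Most of this sum came from Col1a2, Col1a1, Vim and Col3a1, so it mainly follows the levels of these genes. Single markers went in both directions: 3 rose and 1 fell in KO, where 18.2% of all genes rose and 14.2% fell. These counts were 0 and 4 under total-count scaling and 0 and 6 under quantile normalization. With H-151 against KO 5 rose and 6 fell, where 19.4% of all genes rose and 21.4% fell. The 3 that rose in KO became 1 without control replicate 1, and 0 without control replicate 2 or KO replicate 2, and the 5 that rose with H-151 became 2 without KO replicate 1 and 3 without KO replicate 2. Pdgfra, a receptor of fibroblasts, stood at 157 and 155 in control, 65.8 and 70.3 in KO, and 144 and 140.3 in KO + H-151. Because these are bulk cultures, fewer cells of a type and less RNA per cell cannot be told apart.

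Promoter sequences of 4 binding protein genes are shown. Igfbp3, Igfbp2 and Igfbp4 had the widest range of group means of the set on the log2 scale. Igfbp5, whose range was smaller, is the neighbour of Igfbp2 on chromosome 1. The 3' ends of these neighbours face each other across a gap of 5457 bases. Each run is the 250 bases before the RefSeq transcription start (GRCm38.p6), 5′ to 3′ on the gene's strand. Capitals mark matches to any of the 6 motifs searched on both strands: GGAATG (the core TEAD element through which YAP and TAZ act), TTCNNNGAA (bound by STAT factors), GTAAACA (FOXO), TGANTCA (AP-1), TATAAA (the core promoter element known as the TATA box) and the interferon-stimulated response element, read as a pair of GAAA half-sites in the same orientation with any 2 bases between them. None of these motif definitions is contained in another.
Igfbp2 (chr1:72824230-72824479, plus strand): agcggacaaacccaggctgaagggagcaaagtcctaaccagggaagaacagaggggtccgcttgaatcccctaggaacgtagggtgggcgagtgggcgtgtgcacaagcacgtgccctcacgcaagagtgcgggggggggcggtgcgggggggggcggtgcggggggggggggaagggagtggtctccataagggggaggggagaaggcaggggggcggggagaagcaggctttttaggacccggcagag
Igfbp5 (chr1:72874866-72875115, minus strand): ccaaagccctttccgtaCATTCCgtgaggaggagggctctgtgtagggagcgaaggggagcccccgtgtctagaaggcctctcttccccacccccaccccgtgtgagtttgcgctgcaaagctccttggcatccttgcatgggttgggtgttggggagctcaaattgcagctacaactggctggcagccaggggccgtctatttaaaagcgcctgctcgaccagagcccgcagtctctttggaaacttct
Igfbp3 (chr11:7213924-7214173, minus strand): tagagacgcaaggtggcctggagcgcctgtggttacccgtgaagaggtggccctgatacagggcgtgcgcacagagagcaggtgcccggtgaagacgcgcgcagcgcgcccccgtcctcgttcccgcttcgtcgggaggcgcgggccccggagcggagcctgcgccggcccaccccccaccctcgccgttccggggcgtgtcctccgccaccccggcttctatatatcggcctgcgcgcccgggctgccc
Igfbp4 (chr11:99040994-99041243, plus strand): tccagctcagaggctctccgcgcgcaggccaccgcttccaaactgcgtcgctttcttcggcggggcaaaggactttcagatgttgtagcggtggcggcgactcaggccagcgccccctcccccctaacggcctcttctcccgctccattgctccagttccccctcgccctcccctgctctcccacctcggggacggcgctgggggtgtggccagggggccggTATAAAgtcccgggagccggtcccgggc
The Igfbp5 window held the TEAD letters (CATTCC, the reverse complement), 233 to 228 bases before the start, and the Igfbp4 window held a TATA box 28 to 23 bases before the start. Of 32851 RefSeq promoter windows of the same length, 12.6% held the TEAD letters and 12.4% the TATA box letters. The Igfbp2 and Igfbp3 windows shown held none of the 6. Sequences were found for all 9 genes, in 10 windows. Elsewhere among them, AP-1 letters lay in the Igf1 window and in a second Igfbp2 window, against 6.75% of all windows, and TATA letters lay in the Igfbp6 window. A match is a description of the letters and not evidence of binding.

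In KO cells binding protein genes changed in both directions, and neither Igf1 nor Igf1r passed the test. Igfbp2 fell 2.59-fold and Igfbp4 and Igfbp5 fell 1.35-fold and 1.37-fold, whereas Igfbp3 rose 2.51-fold and Igfbp7 rose 1.42-fold. With H-151 added to KO cells these genes parted: Igfbp4 and Igfbp7 moved back towards control, Igfbp3 fell to below control, Igfbp2 fell further and Igfbp5 stayed low, while Igf1 rose above both other groups. All p-values that follow were obtained with limma on log2(scaled CPM + 1) over 13648 genes, with Benjamini-Hochberg adjustment, and a change was called at an adjusted p under 0.05. Log2 differences on that scale are given ± SE, and for low genes they are smaller than the ratio of scaled CPM itself.

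**Figure D1:**
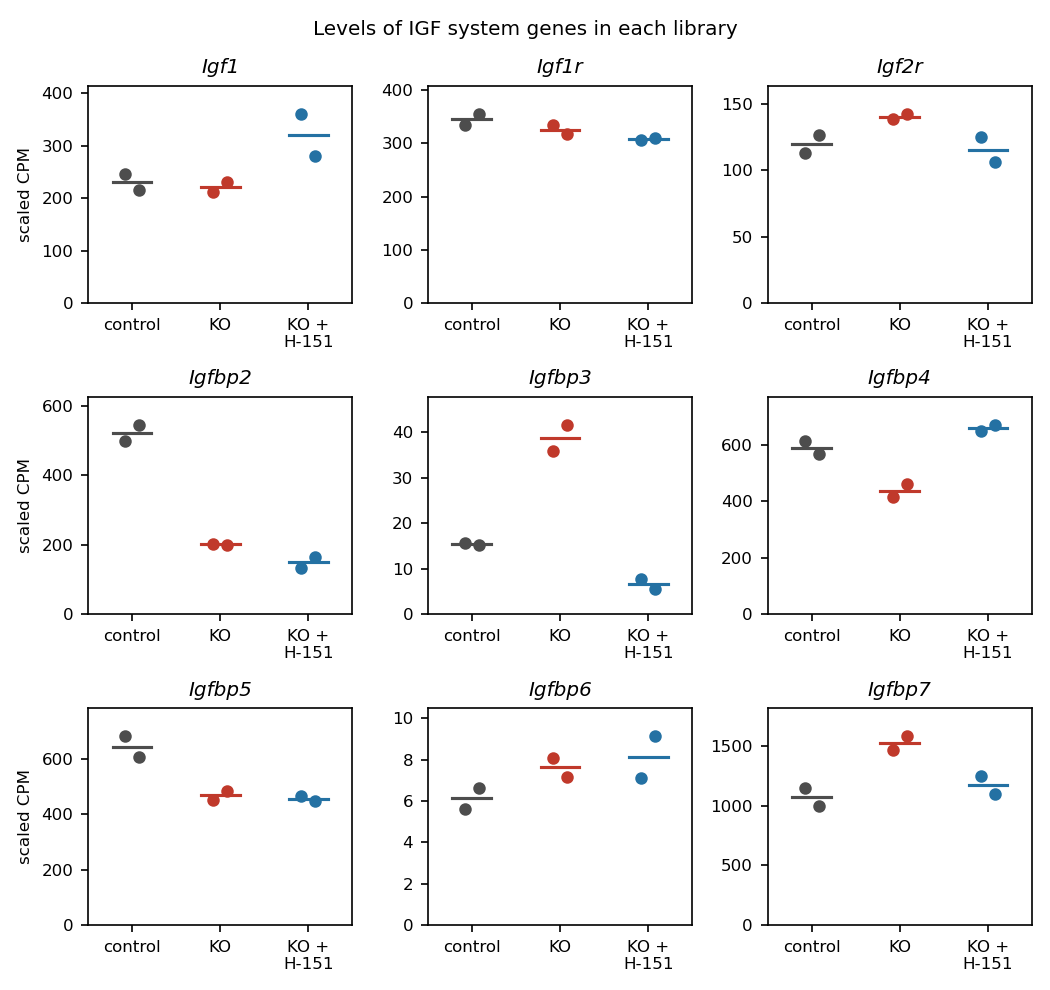
Levels of 9 IGF system genes in scaled CPM (vertical axes, each starting at 0) in control, KO and KO + H-151 libraries; points are single libraries (n = 2 per group) and bars are group means. Igfbp2 is highest in control, Igfbp3 and Igfbp7 are highest in KO, and Igf1 is highest in KO + H-151.

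In KO against control, 2 of the 9 genes rose (Igfbp3 and Igfbp7) and 3 fell (Igfbp2, Igfbp4 and Igfbp5), with a median log2 difference of -0.06. Over all genes tested 18.2% rose and 14.2% fell, 32.4% in all, with a median of -0.01. With H-151 against KO, 2 rose (Igf1 and Igfbp4) and 4 fell (Igfbp2, Igfbp3, Igfbp7 and Igf2r), with a median of -0.08, where 19.4% of all genes rose and 21.4% fell, 40.8% in all, with a median of 0.02. KO + H-151 against control gave 1 rise (Igf1) and 3 falls (Igfbp2, Igfbp3 and Igfbp5), with a median of -0.06, where 11.5% of all genes rose and 11.4% fell, 22.9% in all, with a median of 0.00. These 3 comparisons share libraries. The 2 groups did not overlap for 8 of 9 genes in KO against control (66.9% of all genes), 7 of 9 in KO + H-151 against KO (69.2%) and 7 of 9 in KO + H-151 against control (59.0%). Among genes called in KO against control, 56.2% were higher, and this share was 29.9% with total-count scaling and 39.0% after quantile normalization. With H-151 against KO the share was 47.5%, and 71.2% and 61.9% under the same alternatives. Only the KO groups carried Cre, so loss of YAP and TAZ and the presence of Cre cannot be told apart. Control cells given H-151 are not part of the design, so the action of H-151 in cells that keep YAP and TAZ was not tested.

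**Figure D2:**
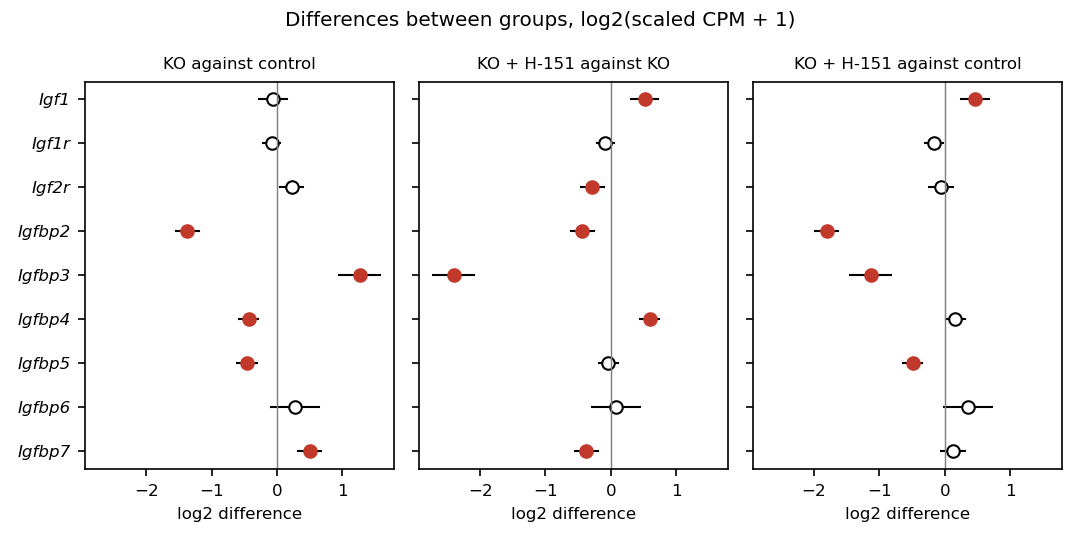
Differences in log2(scaled CPM + 1) (horizontal axes) for the 9 genes in each of the 3 comparisons; lines are 95% intervals from limma, filled points passed an adjusted p under 0.05 and open points did not. Igfbp2 is left of 0 in all 3 panels, and Igfbp3 lies right of 0 in KO against control and left of 0 in the panels with H-151.

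Igfbp2 encodes a binding protein with an RGD motif that can bind integrins and is known as a regulator of growth in many tumours. Its levels were 498 and 544 scaled CPM in control, 202 and 199 in KO, and 134 and 164 in KO + H-151. Both control libraries lay far above the other 4, and both KO + H-151 libraries lay below both KO libraries. The log2 difference was -1.37 ± 0.08 in KO against control (adjusted p = 1.40e-09) and -0.44 ± 0.08 on adding H-151 (adjusted p = 0.000552). Against control the KO + H-151 cells were 3.50-fold lower, at -1.81 ± 0.08 (adjusted p = 6.92e-10). In rank among all genes of the table, the mean level of Igfbp2 went from place 211 in control to 997 in KO and 1192 in KO + H-151. Tags of Yap1 and Wwtr1 were also lower in KO + H-151 than in KO, and the part of that difference in the Igfbp2 values was not tested.

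Igfbp5, the neighbour of Igfbp2 on chromosome 1 (72857932 to 72874884 in GRCm38, minus strand), encodes a binding protein that adheres to extracellular matrix and has been tied to fibrosis of skin. It stood at 682 and 607 scaled CPM in control, 453 and 485 in KO, and 464 and 449 in KO + H-151. Control was above every Cre-bearing library, and the latter 4 were interleaved. The difference was -0.46 ± 0.07 in KO against control (adjusted p = 9.08e-05) and -0.49 ± 0.07 in KO + H-151 against control (adjusted p = 9.01e-05). Between KO + H-151 and KO it was -0.04 ± 0.07, with a 95% interval of -0.19 to 0.11 (adjusted p = 0.706), a value whose sign changed with the scaling: it was 0.14 under total-count scaling and 0.22 under quantile normalization, where the adjusted p was 0.0183. The lower level of both neighbours in KO cells thus remained with the inhibitor, and their sizes differed, a 2.59-fold and a 1.37-fold fall.

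Igfbp3 encodes the main carrier of IGFs in blood, a protein that p53 and TGF-beta are known to induce. It gave the widest change of the set from a low level. Control libraries held 15.7 and 15.3 scaled CPM, KO libraries 35.96 and 41.6, and KO + H-151 libraries 7.64 and 5.50, which correspond to 220 and 212, 413 and 488, and 117 and 88 reads. The 3 groups were fully separated, with KO highest and KO + H-151 lowest. The rise in KO was 1.27 ± 0.15 (adjusted p = 3.67e-06) and the fall with H-151 was -2.40 ± 0.15, 5.90-fold (adjusted p = 1.12e-09). KO + H-151 cells were below control by -1.14 ± 0.15 (adjusted p = 3.17e-05), 2.35-fold.

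Some markers of melanocytes and Schwann cells rose with Igfbp3 in KO, but most did not fall with it under H-151. Of 11 such markers 8 were tested and none of these was at 0 in any library: 5 rose in KO and 2 fell, while with H-151 against KO 2 fell and 2 rose. Over all genes 18.2% rose and 14.2% fell in KO, and 19.4% rose and 21.4% fell with H-151 against KO. Dct and Mbp were the 2 that fell in KO and rose with H-151, from low levels (1.02 to 3.03 and 1.36 to 5.88 scaled CPM over the 6 libraries). The 2 falls in KO became 1 by edgeR and 0 by DESeq2, 1 without either control replicate or KO replicate 1, and 0 without KO replicate 2. The 2 rises with H-151 became 1 by DESeq2 and 1 without KO replicate 2. Their summed level was 81.8 to 90.4 scaled CPM in control, 181 to 195 in KO and 86.4 to 104 in KO + H-151. Sox10, a neural crest transcription factor, stood at 15.2 and 10.8 in control, 42.3 and 47.9 in KO, and 3.46 and 2.94 in KO + H-151. Mitf, Mlana and S100b rose in KO as well, but none of them was called lower with H-151. Mitf stood at 32.4 and 33.9 in control, 48.3 and 48.1 in KO, and 54.0 and 44.1 in KO + H-151. Summed endothelial markers (9 of 11 tested, none at 0 in any library) were 22.8 to 24.9 in control, 22.6 to 26.4 in KO and 24.8 to 28.4 in KO + H-151, but single markers moved in opposite directions under that sum. In KO 2 of the 9 rose and 4 fell, and with H-151 against KO 4 rose and 1 fell. The shares of all genes given above apply here too. Flt1, a VEGF receptor, stood at 3.92 and 3.24 in control, 8.01 and 12.6 in KO, and 3.59 and 2.81 in KO + H-151, highest in KO as Igfbp3 was. Pecam1, an endothelial adhesion molecule, stood at 2.85 and 2.74, 0.348 and 0.255, and 4.25 and 3.94, and Cdh5, the cadherin of endothelial junctions, at 1.78 and 2.38, 0.348 and 0.426, and 2.16 and 2.75. All 9 endothelial markers were low, with means under 10 scaled CPM over the 6 libraries. With a filter on a mean of 10 their counts were 0 in both directions and both comparisons. Without control replicate 2 the 2 rises in KO became 1, and without KO + H-151 replicate 1 the 1 fall with H-151 became 2. The part of these cell types in the Igfbp3 values was not tested.

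Igfbp4, whose product restrains IGF1 until PAPP-A cuts it, stood at 613 and 567 scaled CPM in control, 415 and 459.8 in KO, and 650.1 and 669.9 in KO + H-151. KO was lowest without overlap and KO + H-151 highest. The fall in KO was -0.43 ± 0.07 (adjusted p = 0.000144) and the rise with H-151 was 0.59 ± 0.07, 1.51-fold (adjusted p = 3.76e-06). The difference of KO + H-151 from control, 0.16 ± 0.07 (95% interval 0.01 to 0.31), did not pass (adjusted p = 0.111), although it did under quantile normalization (adjusted p = 0.00989).

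Igfbp7 had the highest level of the set in all 6 libraries, at 1151 and 997 scaled CPM in control, 1462 and 1579.6 in KO, and 1247 and 1098 in KO + H-151. Both KO libraries lay above the other 4, which overlapped. It rose by 0.50 ± 0.08 in KO (adjusted p = 0.000182) and fell by 0.38 ± 0.08 with H-151 (adjusted p = 0.00179). That fall did not pass under total-count scaling (-0.20, adjusted p = 0.0642), quantile normalization (-0.17, adjusted p = 0.161) or without KO replicate 2 (-0.32, adjusted p = 0.0624). KO + H-151 against control was 0.13 ± 0.08, with a 95% interval of -0.05 to 0.30 (adjusted p = 0.319). The last exon of Igfbp7 overlaps that of Polr2b, an RNA polymerase II subunit gene on the opposite strand, by 85 bases. Whether counting used strand is not given in the sources used here, so how tags in this overlap were assigned is not known. Polr2b stood at 69.3 and 71.8 scaled CPM in control, 62.8 and 61.9 in KO, and 64.7 and 59.9 in KO + H-151. The part of the overlap in the Igfbp7 values was not tested.

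Igfbp6, whose product prefers IGF2 over IGF1, was the lowest of the set in control and KO, at 5.63 and 6.63 scaled CPM in control, 8.10 and 7.15 in KO, and 7.12 and 9.13 in KO + H-151. None of its 3 differences passed (adjusted p = 0.244 for KO against control, 0.764 for KO + H-151 against KO and 0.168 for KO + H-151 against control), and the 95% interval of KO against control ran from -0.09 to 0.64. It had 79 to 146 reads per library.

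The ligand gene Igf1 (chromosome 10, 87858265 to 87937042, GRCm38) stood at 247 and 215 scaled CPM in control, 212 and 231 in KO, and 360.2 and 281 in KO + H-151. Control and KO overlapped, with a difference of -0.06 ± 0.10 (95% interval -0.27 to 0.15, adjusted p = 0.700), and both KO + H-151 libraries were higher than the other 4. The rise with H-151 was 0.52 ± 0.10 against KO, 1.45-fold (adjusted p = 0.000481), and 0.46 ± 0.10 against control, 1.39-fold (adjusted p = 0.00259). The call against control was lost without control replicate 2 (0.36, adjusted p = 0.0570) and when limma was run with no variance trend (adjusted p = 0.0864). The 2 KO + H-151 libraries differed more from each other than those of any other group did for this gene.

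Macrophages and adipocytes can express Igf1, and markers of both rose in the KO + H-151 libraries. All 15 macrophage markers rose with H-151 against KO, where 19.4% of all genes rose and 21.4% fell. Their summed level was 1342 to 1561 scaled CPM in control, 1669.7 to 1675 in KO and 3426 to 4193 in KO + H-151. Of 10 adipocyte markers 8 were tested and all 8 rose, with sums of 1459 to 1712, 1268 to 1448 and 3376 to 4515. In KO against control, where 18.2% of all genes rose and 14.2% fell, 4 macrophage markers rose and 2 fell. The 4 became 1 under total-count scaling and 1 under quantile normalization. Of the adipocyte markers 0 rose and 4 fell in KO, and 0 rose by edgeR or DESeq2. Most of the macrophage sum came from Lyz2, and most of the adipocyte sum from Lpl and Fabp4. None of these tested markers was at 0 in any library. KO + H-151 replicate 1, the library with more Igf1 (360.2), also had more of both marker sums (4193 and 4515) than replicate 2 (3426 and 3376). Control replicate 1 likewise had more Igf1 (247) and more of both sums (1561 and 1712). In KO, replicate 2 had more Igf1 (231 against 212) and the larger adipocyte sum (1448 against 1268), but the lower macrophage sum (1669.7 against 1675). Lyz2, a macrophage lysozyme, stood at 995 and 841 in control, 1042 and 1044 in KO, and 2740 and 2199 in KO + H-151. Csf1r, the receptor for the macrophage growth factor CSF1, stood at 35.9 and 33.7, 24.6 and 25.5, and 76.5 and 72.9 in the same order. Each of these orders within a group compares single libraries, with 2 per group, and nothing is concluded from them. The part of these cell types in the Igf1 values was not tested.

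The receptor genes varied little. Igf1r (chromosome 7, 67952827 to 68233668, GRCm38) stood at 335 and 354 scaled CPM in control, 334 and 317 in KO, and 306 and 309 in KO + H-151. No comparison passed as fitted here: KO against control was -0.08 ± 0.06 (95% interval -0.22 to 0.05, adjusted p = 0.363), KO + H-151 against KO was -0.08 ± 0.06 (adjusted p = 0.333) and KO + H-151 against control was -0.16 ± 0.06 (adjusted p = 0.0808). The last passed in 1 alternative, a replicate block with the KO numbers swapped (adjusted p = 0.0248). In KO against control the difference passed under total-count scaling (-0.25, adjusted p = 0.00597) and quantile normalization (-0.24, adjusted p = 0.0106), settings that also move the median of all genes, to -0.16 and -0.10. Under those same settings the KO + H-151 against KO difference took the other sign (0.10 and 0.17), where the median of all genes moved to 0.18 and 0.10.

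Igf2r (chromosome 17, 12682406 to 12769664, GRCm38), an imprinted gene that clears IGF2, stood at 113 and 127 scaled CPM in control, 138 and 142 in KO, and 125 and 106 in KO + H-151. KO libraries were the highest and the other groups overlapped. The difference of KO from control, 0.23 ± 0.08, missed the threshold (adjusted p = 0.0505) and passed in 5 of 18 alternatives: when only the 2 groups compared were fitted (adjusted p = 0.0119), without KO + H-151 replicate 1 (adjusted p = 0.0118) or replicate 2 (adjusted p = 0.0114), without control replicate 2 (0.31, adjusted p = 0.0434) and in the block with the KO numbers swapped (adjusted p = 0.00730). It was 0.062 under total-count scaling (adjusted p = 0.572) and 0.074 under quantile normalization (adjusted p = 0.535). The fall with H-151 against KO, -0.28 ± 0.08 (adjusted p = 0.0130), did not pass under total-count scaling (-0.11, adjusted p = 0.307), under quantile normalization (-0.09, adjusted p = 0.405), with no variance trend (adjusted p = 0.104), or without KO replicate 1 (-0.30, adjusted p = 0.0747), KO replicate 2 (-0.26, adjusted p = 0.112) or KO + H-151 replicate 2 (-0.16, adjusted p = 0.131). Airn, a noncoding RNA transcribed across Igf2r on the opposite strand and known to silence the paternal copy, was at 2.61 to 3.92 scaled CPM in the 6 libraries.

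Summed over Igfbp2 to Igfbp6, the tags of the high-affinity binding proteins were fewer in Cre-bearing cells and differed in makeup. The sum was 1814 and 1739.6 scaled CPM in control, 1115 and 1193 in KO, and 1263 and 1298 in KO + H-151, and both Cre-bearing groups lay below control. Igfbp2 supplied 29.4% ± 2.69 of these tags in control (SD, n = 2), 17.4% ± 1.03 in KO and 11.6% ± 1.45 in KO + H-151. Igfbp4 supplied 33.2% ± 0.861, 37.9% ± 0.908 and 51.6% ± 0.0967 in the same order. Igfbp5 held 36.2% ± 1.89, 40.7% ± 0.0272 and 35.7% ± 1.52, while Igfbp3 held 0.871% ± 0.0103, 3.35% ± 0.183 and 0.515% ± 0.128. Igfbp5 held the largest share in each control and KO library, and Igfbp4 in both KO + H-151 libraries. Per 100 tags of Igfbp2 to Igfbp6 there were 13.6 and 12.3 Igf1 tags in control, 19.02 and 19.4 in KO, and 28.5 and 21.6 in KO + H-151. The 3 groups did not overlap in this ratio, which is given without a test and says nothing of the amounts of protein.

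**Figure D3:**
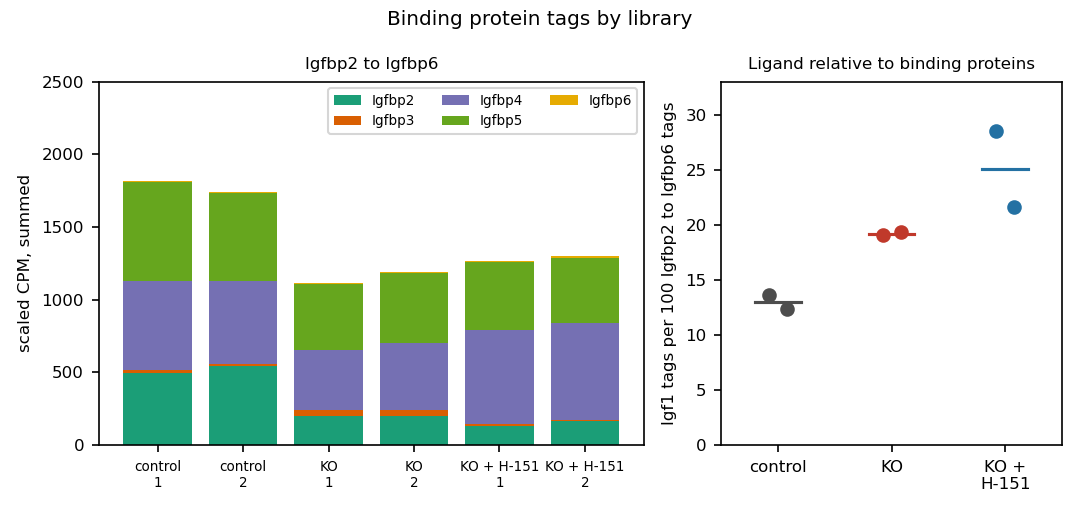
Left, summed scaled CPM of Igfbp2 to Igfbp6 (vertical axis) in each of the 6 libraries, stacked by gene; right, Igf1 tags per 100 tags of Igfbp2 to Igfbp6, with points for libraries and bars for group means. The summed bars reach 1739.6 to 1814 in control and 1115 to 1298 in the Cre-bearing libraries, and the ratio is lowest in control.

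The genes whose profile over the 6 libraries lay closest to those of the 3 members with the widest range of group means (Igfbp3, Igfbp2 and Igfbp4) were ranked by the root mean square difference of centred log2 values. For Igfbp3 they were Sox2, a stem cell transcription factor (0.11), Agrn, which encodes the matrix proteoglycan agrin (0.13), and the solute carrier Slc22a23 (0.16). Sox2 stood at 4.99 and 4.47 scaled CPM in control, 14.4 and 15.7 in KO, and 1.96 and 1.44 in KO + H-151. For Igfbp2 they were Yap1, a deleted gene of the KO cells (0.23), Ccn1, a matricellular target of YAP and TAZ (0.24), and Lurap1l (0.25). Ccn1 stood at 303 and 310.3 in control, 192 and 154 in KO, and 105 and 117 in KO + H-151. For Igfbp4 they were Rab40c (0.02), the imprinted noncoding RNA Peg13 (0.04) and Arhgef17 (0.04). Each member was compared with 10179 genes, and the profiles rest on only 3 group levels.

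Other genes of the system were counted in 8 lists, and genes in brackets after a count were named once their values were known. These counts, and those of the cell type markers above, stand beside the shares of all genes. In KO 18.2% of all genes rose and 14.2% fell, and with H-151 against KO 19.4% rose and 21.4% fell. Of 16 proteases that cut binding proteins and their inhibitors, 7 rose and 4 fell in KO (median 0.18), and 4 rose and 9 fell with H-151 against KO (median -0.33). The 7 became 4 without control replicate 2 and 4 without KO replicate 2. Adamts1, a secreted metalloprotease, fell from 409.7 and 411 scaled CPM in control to 149 and 159 in KO and stood at 214 and 203 in KO + H-151 (-1.41 ± 0.07 in KO, adjusted p = 3.63e-11). Plat, tissue plasminogen activator, stood at 36.8 and 38.5, 108 and 104, and 29.0 and 28.4 (1.47 ± 0.08 in KO and -1.85 ± 0.08 with H-151). Stc1, an inhibitor of PAPP-A, stood at 52.8 and 46.5 in control, 22.7 and 20.5 in KO, and 46.4 and 41.3 in KO + H-151 (-1.16 ± 0.10 in KO). The lysosomal protease Ctsd had the highest level of the list and rose by 0.20 ± 0.07 in KO (adjusted p = 0.0451) and by 0.63 ± 0.07 with H-151.

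Pappa, which encodes the main protease of IGFBP4, was picked after its values were seen. It stood at 136 and 131 scaled CPM in control, 168 and 175 in KO, and 98.0 and 106 in KO + H-151, with no overlap between groups. It rose by 0.36 ± 0.07 in KO (adjusted p = 0.000866) and fell by 0.74 ± 0.07 with H-151 (adjusted p = 2.90e-07), the opposite order to its substrate gene Igfbp4. Stc2, the other stanniocalcin that inhibits PAPP-A and also picked afterwards, fell in KO (-0.57 ± 0.18, adjusted p = 0.0212) and fell again with H-151 (-1.34 ± 0.18, adjusted p = 1.37e-05).

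Of 19 adaptors and inhibitors at the receptor, 6 rose and 5 fell (Irs1, Irs2, Grb14, Sh2b2 and Cbl) in KO, with a median of -0.02, and 7 rose and 7 fell with H-151 (median -0.07). Irs1, the adaptor that links the IGF1 receptor to PI3K, stood at 116 and 128 scaled CPM in control, 34.3 and 45.2 in KO, and 91.5 and 84.0 in KO + H-151 (-1.60 ± 0.11 in KO, adjusted p = 3.83e-09; 1.13 ± 0.11 with H-151, adjusted p = 2.49e-07). KO was lowest without overlap, and KO + H-151 remained below control (-0.47 ± 0.11, adjusted p = 0.00407). Irs2, picked after its values were seen, stood at 25.2 and 24.3, 6.27 and 11.0, and 29.2 and 27.1 (-1.46 ± 0.17 in KO, adjusted p = 5.23e-06). Grb14, an inhibitor of the insulin receptor, fell by 1.22 ± 0.07 in KO. Socs1, a cytokine-induced inhibitor that can also act on IRS proteins, was at 7.69 and 10.2 in control, 194 and 200.1 in KO, and 7.71 and 7.50 in KO + H-151.

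In the kinase cascade below the receptor, 1 of 22 genes rose in KO and 4 fell (median -0.06), where 18.2% of all genes rose and 14.2% fell. With H-151 against KO 7 rose and 4 fell (median -0.01), where 19.4% of all genes rose and 21.4% fell. Without KO replicate 1 the 7 became 4. Pik3r1, the regulatory subunit of PI3K, stood at 244 and 252 scaled CPM in control, 129 and 127 in KO, and 240.0 and 250.3 in KO + H-151 (-0.95 ± 0.06 in KO, adjusted p = 5.43e-09). Akt1 had the highest mean of the list and did not pass in KO (0.12 ± 0.07, adjusted p = 0.208). Of 22 FOXO factors and known FOXO targets, 7 rose and 10 fell in KO (median -0.09), and 12 rose and 4 fell (Foxo1, Cited2, Pik3ip1 and Trib1) with H-151 (median 0.27). The 7 that rose in KO became 4 without control replicate 2 or KO replicate 2, and the 10 that fell became 6 without KO replicate 1 and 5 without KO replicate 2. Pik3ip1, an inhibitor of PI3K, rose by 1.08 ± 0.09 in KO and Gadd45a, a stress-response gene, fell by 0.96 ± 0.08.

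**Figure D4:**
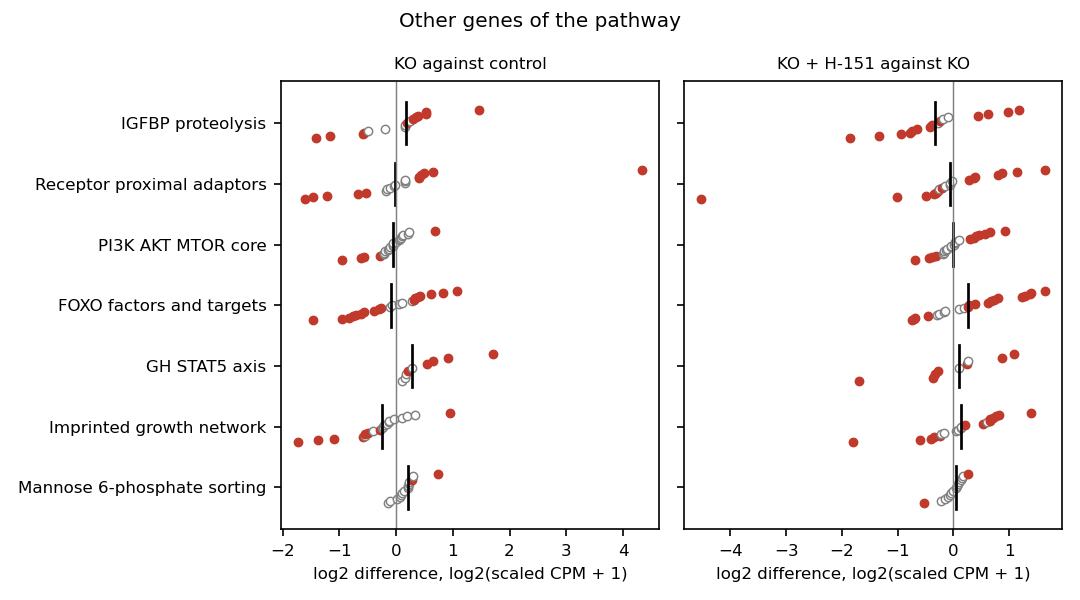
Differences in log2(scaled CPM + 1) (horizontal axes) of single genes in 7 lists of the pathway, in KO against control (left) and KO + H-151 against KO (right); filled points passed an adjusted p under 0.05, open points did not, and vertical bars are list medians. The far point among receptor adaptors is Socs1, right of 0 in KO and left of 0 with H-151.

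Of 9 genes of the growth hormone and STAT5 axis, which controls Igf1 in liver, 5 rose in KO (Jak2, Socs2, Cish, Stat5b and Ghr) and 0 fell, with a median of 0.29. By DESeq2 and edgeR on recovered reads the count of falls was 0 and 0, and 0 of the 9 had a limma difference below 0 with an unadjusted p under 0.05. With H-151, 3 rose (Ghr, Ptpn6 and Igfals, the last at only 0.072 to 1.75 scaled CPM) and 4 fell (Jak2, Socs2, Cish and Stat5b). Without KO + H-151 replicate 2 these became 1 and 2, and without KO replicate 1 the 4 became 2. Jak2 stood at 32.3 and 32.0 scaled CPM in control, 109 and 107 in KO, and 31.7 and 33.9 in KO + H-151. Socs2, a feedback inhibitor of growth hormone signalling, stood at 117 and 115, 184 and 183, and 153 and 149.7.

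Of 20 tested genes of the imprinted network around Igf2, Igf2r and H19, 1 rose in KO (Peg10) and 7 fell (median -0.24). Igf2 and Igf2r were not among these 20 genes. With H-151 8 rose and 5 fell (Gnas, Peg10, H19, Grb10 and Meg3), with a median of 0.14. The 8 became 5 without KO replicate 1 and 4 when only genes with a mean of 10 or more were kept. Mest stood at 259.7 and 254 scaled CPM in control, 117 and 124 in KO, and 133 and 131 in KO + H-151 (-1.09 ± 0.07 in KO, adjusted p = 1.29e-09). The noncoding RNAs Rian and Mirg fell by 1.72 ± 0.16 and 1.38 ± 0.18. H19, which shares its control region with Igf2 and was picked after its values were seen, stood at 79.4 and 63.3 in control, 56.6 and 63.8 in KO, and 37.4 and 40.8 in KO + H-151. Its KO difference did not pass (-0.24 ± 0.10, adjusted p = 0.0979) and the groups overlapped, and it fell with H-151 by 0.61 ± 0.10 (adjusted p = 0.000202). Of 15 partners of Igf2r in lysosomal sorting, 3 rose in KO (M6pr, Snx1 and Snx2) and 0 fell (median 0.20), where 18.2% of all genes rose and 14.2% fell. Under total-count scaling, and also under quantile normalization, 1 rose and 2 fell. The 3 became 1 without KO replicate 2, 5 without either KO + H-151 replicate, 5 when only the 2 groups were fitted and 6 in the block with the KO numbers swapped. In limma as fitted here, 0 had a difference below 0 with an unadjusted p under 0.05 and 0 and 0 fell by edgeR and DESeq2. M6pr, the smaller mannose 6-phosphate receptor, rose by 0.29 ± 0.08 (adjusted p = 0.00851). Of 9 other IGF family and IGF-related genes, 3 rose (Insr, Igf2bp2 and Crim1) and 1 fell (Esm1, at 0.341 to 1.95 scaled CPM in the 6 libraries) in KO. The fall of Esm1 did not pass by edgeR or DESeq2, or without control replicate 2, KO replicate 1 or KO replicate 2. Insr, the insulin receptor, stood at 18.8 and 21.1 scaled CPM in control, 22.6 and 28.8 in KO, and 21.2 and 20.1 in KO + H-151 (0.34 ± 0.13 in KO, adjusted p = 0.0497). Igf2bp2, an RNA-binding protein that binds the Igf2 messenger, stood at 93.9 and 96.2, 127 and 128, and 95.8 and 94.0 (0.42 ± 0.07 in KO, adjusted p = 0.000144).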

How the data were processed

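RNA levels of 6 libraries were taken from 1 deposited table of 13706 gene symbols. Per the submitters' processing notes, STAR 2.5.3a, featureCounts and edgeR were used with the mm10 build; annotation, strand setting and any filter are not given in the sources used here. The deposited values are a signal called CPM per the file headers and name, scaled by an effective library size: columns summed to 955838 to 1083568, and 100.0% of values were whole multiples of 1 step per column (tolerance 0.0006), which gave whole reads. Values were fitted as log2(value + 1) with limma 3.58.1 in R 4.3.3, 1 mean per group over all 6 libraries and a variance trend (3 residual degrees of freedom), for the 13648 genes that reached 1 scaled CPM in 2 or more libraries. The plan, written for plain CPM, applies to this unit unchanged. The fit was also run on simulated data in which only a small part of the genes changed, unlike these data, and no result here rests on that run. Alternatives were other pseudocounts, filters and scalings, a replicate term, each library left out, edgeR 4.0.16 and DESeq2 1.42.0 on the recovered reads. Members, gene lists and motifs were chosen with earlier results of these data known. All members were named, and of each other list the 3 genes with the smallest p in KO and the 1 with the highest mean, where space allowed; some of these genes are not reported here. Other genes are marked. Gene positions are from GENCODE for GRCm38, the build mm10, and promoters from RefSeq (GRCm38.p6).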

Additional observations from a re-analysis of the deposited data

How the results depend on the processing

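Over 18 alternatives, 451 of 483 values of single members kept their direction and their side of the threshold, 11 lost and 10 gained a call, and 11 changed sign. Several alternatives leave a log2 difference unchanged by construction, so in them only the call could move. These were the filters, no variance trend, the replicate blocks, fitting only the groups compared, and leaving out a library of the group not compared. The calls of Igfbp2 and Igfbp3 in all 3 comparisons, those of Igfbp4 and Igfbp7 in KO against control, both calls of Igfbp5 and the H-151 rises of Igf1 and Igfbp4 against KO held in every alternative run. The 4 members that fell with H-151 against KO became 2 under total-count scaling and 2 under quantile normalization, where Igfbp7 and Igf2r did not pass. Igfbp5 and Igf1r took the other sign there (0.14 and 0.10 under total-count scaling, 0.22 and 0.17 under quantile normalization). The 1 member higher in KO + H-151 than in control became 2 under quantile normalization and 0 with no variance trend. With each library left out in turn, members higher ran from 2 to 3 in KO against control and from 0 to 1 in KO + H-151 against control (0 without control replicate 2), and members lower with H-151 against KO from 2 to 4 (2 without KO replicate 2). Uncalled values that changed sign when 1 library was left out were Igf1 in KO against control (-0.16 to 0.043), Igfbp5 (-0.087 to 0.011) and Igfbp6 (-0.085 to 0.23) in KO + H-151 against KO, and Igf2r in KO + H-151 against control (-0.18 to 0.061). Replicate numbers are shared by the groups, but nothing says that they pair the samples. Deviations of same-numbered libraries correlated at -0.07 for control with KO, 0.15 for control with KO + H-151 and -0.13 for KO with KO + H-151. The replicate block left the counts at 2 higher and 3 lower in KO, 2 and 4 with H-151 against KO, and 1 and 3 in KO + H-151 against control. A crossed replicate block with the KO numbers swapped, added after seeing the data, gave 3 and 3, 2 and 4, and 2 and 4. Over all genes, lower genes in KO numbered 1938, 4054 under total-count scaling, 2989 under quantile normalization, 1266 with a filter on a mean of 10 and 1217 by DESeq2, and higher genes with H-151 against KO numbered 2643, 4770 and 1676 by total-count scaling and that filter, with 2923 and 1930 lower as deposited and by total-count scaling. Lower genes in KO + H-151 than control numbered 1562, and 937 without a trend. Of 1620 counts over the other lists, 150 moved by more than 1.5 times. In KO against control, total-count scaling took proteases and inhibitors higher from 7 to 4, receptor adaptors lower from 5 to 9, kinase cascade genes lower from 4 to 10, FOXO genes higher from 7 to 4, imprinted genes lower from 7 to 12 and lysosomal sorting genes higher from 3 to 1 and lower from 0 to 2. Quantile normalization took the kinase cascade to 8 lower and gave the same counts for proteases, FOXO genes and sorting genes. With H-151 against KO, total-count scaling took adaptors lower from 7 to 3, the kinase cascade lower from 4 to 2, growth hormone axis genes lower from 4 to 1, imprinted genes lower from 5 to 3 and sorting genes higher from 1 to 7, and quantile normalization gave 3 adaptors, 1 growth hormone axis gene and 2 imprinted genes lower and 6 sorting genes higher. With no variance trend, FOXO genes lower in KO went from 10 to 6, sorting genes higher from 3 to 1, and growth hormone axis genes lower with H-151 against KO from 4 to 2. Esm1, lower in KO, did not pass with pseudocount 4, in the replicate block, by edgeR or by DESeq2, and was left out by the filter on a mean of 10. The filter on a mean of 10 left out Igfbp6. Depth limits the precision of low genes, and Igfbp6 rests on 79 to 146 reads per library.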
